A study of Homo sapiens with 57 samples.

Results

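SUMO2 (Entrez 6613), SUMO3 (Entrez 6612) and PIAS1 (Entrez 8554) are 3 of the 412 genes of a targeted expression panel measured in HK-2 cells, an established human cell line from the epithelium of the proximal tubule. They were found by their Entrez identifiers in all 57 wells of the series. The 3 genes were chosen by values measured in these wells: SUMO2 and PIAS1 met the study's criteria for differentially expressed genes (DEGs) with the herb Roucongrong, and SUMO3 is the closest relative of SUMO2. Their Roucongrong values, those of the DMSO wells of that set included, are therefore a description without a test, and only the Yinyanghuo and Gusuibu values were tested. The study asked how 3 herbs of a Chinese medicine for infertility act on transcription in kidney cells. Crude extracts of Roucongrong (Cistanche), Yinyanghuo (Epimedium) or Gusuibu (Drynaria) were each given to 3 wells at 100 μg/mL for 24 h. Each extract had a set of 16 control wells of its own with 0.5% DMSO, and all wells were seeded with 3000 cells and kept in medium with serum. Each extract is a mixture tested at 1 dose in 1 cell line, and the sources used here do not say whether the wells of a group came from separate cultures. The p-values therefore measure the spread between wells, which may be technical.

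SUMO proteins are small ubiquitin-like proteins that cells attach to lysines of other proteins, many of them nuclear. Enzymes activate SUMO and hand it on, and E3 ligases such as the PIAS family help to place it on a target, while SENP proteases remove it. SUMO2 and SUMO3 are nearly the same protein, can form chains and are attached to many proteins under heat, oxidative or proteotoxic stress. PIAS1, a protein inhibitor of activated STAT, is both a SUMO ligase and a repressor of STAT-driven transcription.

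The panel was read by RASL-seq, in which 2 neighbouring probes per mRNA are joined by a ligase, amplified and sequenced. A count thus depends on the gene's own probes, and levels are compared between wells, not between genes. On the GRCh38 build with GENCODE release 29 annotation, SUMO2 lies on the minus strand at chr17:75165586-75182983, SUMO3 on the minus strand at chr21:44805617-44818779 and PIAS1 on the plus strand at chr15:68054179-68198603. The coding sequences of SUMO2 (288 bases) and SUMO3 (312 bases) had the same base at 81.4% of 285 aligned positions, with a longest identical run of 24 bases. The encoded proteins of 95 and 103 residues had the same residue at 91 of 94 aligned positions. The stretches of 120 coding bases in which both paralogs are most alike are shown because they bear on how well a probe can tell the paralogs apart. Capitals mark the 16 positions where the paralogs differ, and the stretches span 2 coding exons at chr17:75168351-75174820 (SUMO2) and chr21:44806990-44809115 (SUMO3).
SUMO2: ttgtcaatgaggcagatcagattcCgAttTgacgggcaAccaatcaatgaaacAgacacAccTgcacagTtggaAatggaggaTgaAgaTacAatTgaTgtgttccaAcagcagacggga
SUMO3: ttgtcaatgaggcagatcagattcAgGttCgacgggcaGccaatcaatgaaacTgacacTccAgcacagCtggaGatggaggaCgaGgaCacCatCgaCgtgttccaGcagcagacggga
The annotation also names 18 SUMO2 pseudogenes. As no probe sequence was used here, reads that SUMO2, SUMO3 and these copies may share were not examined, and the counts of both paralogs are uncertain to that extent.

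A well held 13581 to 75969 counts in all. The second Yinyanghuo well (13581) and the first Gusuibu well (18177) had the lowest totals and lay below every DMSO well of their sets. Levels are given as CPM (a gene's counts scaled to a common library size) with TMM scaling over all 57 wells. The floor was taken as 3 counts, which correspond to 39.5 to 221 CPM by total count alone, without TMM scaling. The panel holds few markers of cell identity. Of 11 genes checked as markers of HK-2 cells it measures CDH2, LCN2 and the mesenchymal gene VIM, which were expressed in every well, and of 10 markers of other cell types it measures only the endothelial CDH5, which had at most 6 counts in a well. In bulk wells, fewer cells with a transcript and less transcript per cell cannot be told apart.

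The levels of the 3 genes without any extract were not the same in the sets of DMSO wells. SUMO2 had 517 to 1466 CPM (median 829) in the 16 DMSO wells of the Roucongrong set, 1028 to 2382 (median 1256) in those of the Yinyanghuo set and 774 to 2018 (median 1239) in those of the Gusuibu set. The Roucongrong set was the lowest, and its range overlapped both others. Its mean was 868 ± 250.4 CPM (SD, n = 16), against 1384 ± 355 and 1279 ± 359. The Roucongrong wells took part in the choice of the genes, so differences from that set are given without a test. The log2 level of SUMO2 was higher by 0.66 (SE 0.13) in the Yinyanghuo set and by 0.54 (SE 0.13) in the Gusuibu set than in the Roucongrong set. The Yinyanghuo and Gusuibu sets did not differ beyond their spread for SUMO2 (log2 difference -0.12, edgeR adjusted p = 0.624).

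SUMO3 had 1845 to 4453 CPM (median 3359) in the DMSO wells of the Roucongrong set, 2903 to 5403 (median 3992) in the Yinyanghuo set and 3959 to 6089 (median 4619) in the Gusuibu set. It was thus also lowest in the Roucongrong set, by 0.35 on the log2 scale against the Yinyanghuo set (SE 0.086) and by 0.56 against the Gusuibu set (SE 0.085). The step from the Yinyanghuo to the Gusuibu set, 0.20, did not pass the test (edgeR adjusted p = 0.137). PIAS1 took the opposite order. It had 167 to 696 CPM (median 305) in the Roucongrong set, 0 to 397 (median 149) in the Yinyanghuo set and 0 to 309 (median 151) in the Gusuibu set. PIAS1 was lower than in the Roucongrong set by a log2 difference of -1.02 in the Yinyanghuo set (SE 0.29) and of -1.20 in the Gusuibu set (SE 0.28), and the latter sets did not differ beyond their spread (-0.18, edgeR adjusted p = 0.793). PIAS1 was counted thinly, with medians of 13.5, 4 and 5.5 reads in the DMSO wells of the 3 sets and no read in 2 wells of the Yinyanghuo set and 1 of the Gusuibu set. Over the panel, the levels of 108 of 412 genes (26.2%) differed between the DMSO sets at an edgeR adjusted p-value under 0.05. The 3 genes are not read against this share, because it too rests on the Roucongrong DMSO wells. Every extract was tested in 1 set only, so a comparison of extracts is also a comparison of sets.

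**Figure D1:**
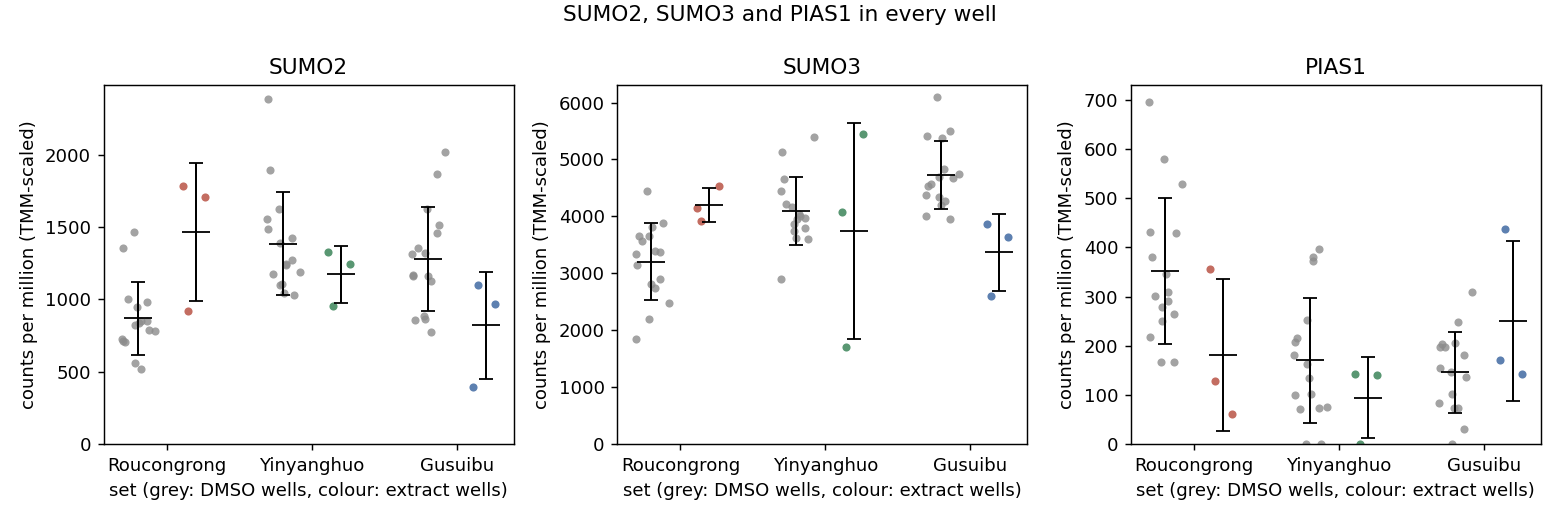
CPM of SUMO2, SUMO3 and PIAS1 in each of the 57 wells, by set; grey points are DMSO wells, coloured points extract wells, and black bars the mean ± SD (n = 16 or 3). Among the DMSO sets, that of Roucongrong has the lowest mean SUMO2 and SUMO3 and the highest mean PIAS1. All 3 Gusuibu extract wells lie below the Gusuibu DMSO wells for SUMO3.

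In the edgeR fit, SUMO2 with Roucongrong was 1.64 times its level in the DMSO wells of the set, SUMO3 1.30 times, and PIAS1 0.509 times. SUMO2 had 55, 36 and 56 reads in the 3 extract wells, which correspond to 1779.6, 918 and 1704 CPM. The first and the third of these wells were above all 16 DMSO wells, and the second was above 11 of them. The mean was 1467 ± 477 CPM (SD, n = 3), and the log2 fold change 0.72 (SE 0.23). SUMO3 had 128, 154 and 149 reads, or 4142, 3928 and 4533 CPM. Each of these wells was above at least 15 of the 16 DMSO wells, and the third was above all. The mean was 4201 ± 307 CPM (SD, n = 3) against 3206 ± 676 (SD, n = 16), and the log2 fold change was 0.37 (SE 0.16).

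PIAS1 had 11, 5 and 2 reads with Roucongrong, or 356, 128 and 60.8 CPM. The first well lay within the range of the DMSO wells, and the other two lay below all of them. The mean was 181 ± 155 CPM (SD, n = 3) against 353 ± 149 (SD, n = 16), and the log2 fold change was -0.97 (SE 0.47). The study's criteria were a fold change of more than 1.5 or less than 0.67, with an unadjusted p under 0.05 from DESeq. The calls given here apply the same cut-offs to edgeR p-values, so they are not the study's own. They numbered 41, 60 and 38 genes with Roucongrong, Yinyanghuo and Gusuibu, against 26, 54 and 21 with DESeq2 as run here. With Roucongrong, SUMO2 was called higher and PIAS1 lower, as their choice requires, while SUMO3 was not called. Of the 402 genes tested in this comparison, 7.21% were called higher and 2.99% lower, and 2.99% had an adjusted p-value under 0.05, with none of the 3 genes among the latter. Without the first Roucongrong well, SUMO2 was not called (log2 fold change 0.54), and PIAS1 lost its call when either of the other wells was left out (-0.78 without replicate 2, -0.57 without replicate 3). Without the first well the PIAS1 value was -1.84, and with all 57 wells in 1 fit it was -0.96 and not called. Because these wells chose the genes, the calls and adjusted p-values here are no test of them. They show only how far the choice hangs on single wells.

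The size of these differences depended on which DMSO wells served as controls. Measured against the other sets' 32 DMSO wells, the log2 fold change with Roucongrong was 0.10 (SE 0.22) for SUMO2, -0.10 (SE 0.13) for SUMO3 and 0.13 (SE 0.58) for PIAS1. For SUMO2, the first and the third Roucongrong wells were still above 28 of those 32 wells, whereas the second was above only 4 of them. For PIAS1, the 3 wells were above 29, 13 and 4 of them. With the plates and days of the sets not given in the sources used here, the part of the set in these differences was not tested.

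**Figure D2:**
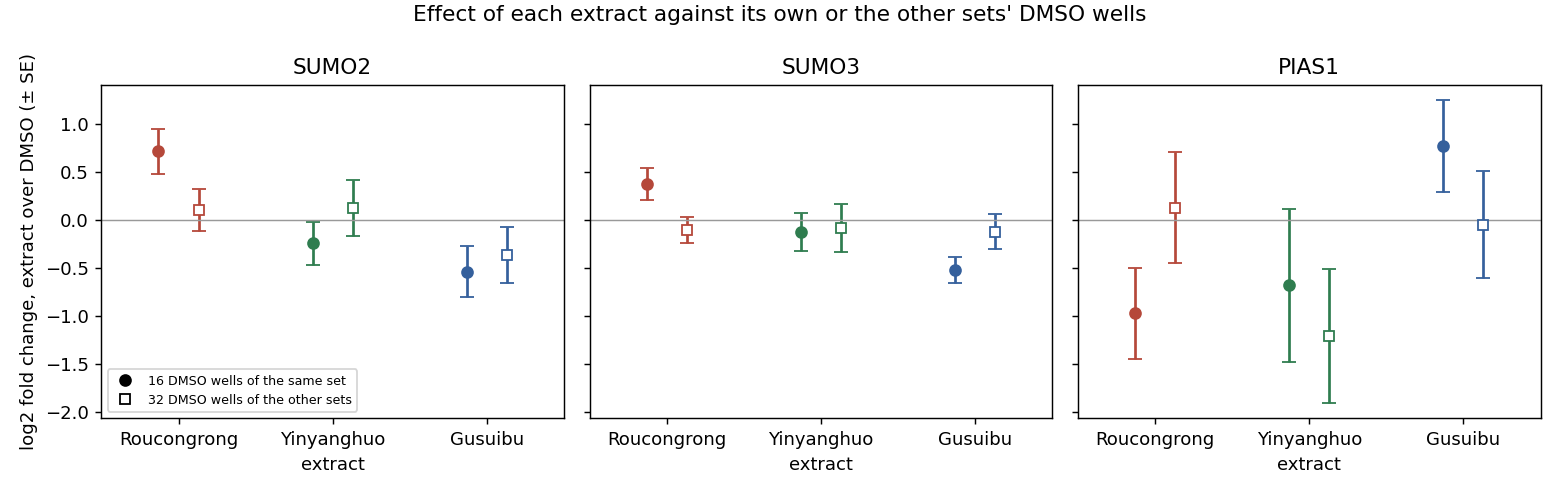
Log2 fold change (± SE) of each gene with each extract, against the 16 DMSO wells of the same set (filled circles) or the other sets' 32 DMSO wells (open squares). For Roucongrong, the values of all 3 genes move to between -0.10 and 0.13 against the other sets' wells.

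With Yinyanghuo, none of the 3 genes passed a test. SUMO2 had 28, 14 and 44 reads, or 1329, 953 and 1242 CPM. The second well was below all 16 DMSO wells of its set, and the others lay inside their range. The mean was 1175 ± 197 CPM (SD, n = 3) against 1384 ± 355 (SD, n = 16), and the log2 fold change was -0.24 (SE 0.23, edgeR adjusted p = 0.589, exact permutation p = 0.301). SUMO3 had 86, 25 and 193 reads, or 4083, 1701 and 5449 CPM. These wells span the whole range of the controls: the second was below all 16 DMSO wells, and the third above all. The log2 fold change was -0.12 (SE 0.19, edgeR adjusted p = 0.750, exact permutation p = 0.218), and it was 0.19 without the second well, which had the lowest total of the series. PIAS1 had 3, 0 and 5 reads, against 0 to 15 in the DMSO wells, and its log2 fold change was -0.68 (SE 0.80, edgeR adjusted p = 0.699, exact permutation p = 0.375). At this depth 3 reads or fewer cannot show a change. The second well's 0 reads allow up to 221 CPM without TMM scaling, beside a TMM-scaled DMSO median of 149. Among the 400 genes tested with Yinyanghuo, 7.75% were called higher and 7.25% lower by the study's criteria and 7.5% had an adjusted p-value under 0.05, with 0 of the 3 genes in any of these counts. At an unadjusted edgeR p under 0.05 the count was likewise 0 of 3, and DESeq2 gave none of them an adjusted p under 0.05 (it assigned PIAS1 none).

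With Gusuibu, SUMO3 fell. It had 68, 107 and 177 reads, or 3871, 2607 and 3633 CPM, and all 3 wells lay below all 16 DMSO wells of the set, the lowest of which had 3959 CPM. The mean was 3370.5 ± 672 CPM (SD, n = 3) against 4725 ± 595 (SD, n = 16). The log2 fold change was -0.52 (SE 0.13, edgeR adjusted p = 0.0187), which is 0.696 times the control level in the edgeR fit. The exact permutation p of 0.00103 was the smallest that this number of wells allows. The fold change stayed short of the study's criterion of 0.67, so SUMO3 was not called. It was called without the first well (-0.58) or without the third (-0.62). The result did not pass at an adjusted p of 0.05 without the second Gusuibu well (-0.39, edgeR adjusted p = 0.285), with all 57 wells in 1 fit (-0.50, edgeR adjusted p = 0.158) or with the replicate block (-0.42, edgeR adjusted p = 0.525). The block fits each well number apart, so it compares only the 3 extract wells with the 3 DMSO wells of the same numbers. With controls from the other sets the difference was -0.12 (edgeR adjusted p = 0.833), the median level of SUMO3 with DMSO being highest in the Gusuibu set.

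SUMO2 had 7, 45 and 47 reads with Gusuibu, or 398, 1096 and 965 CPM. All 3 wells were below the DMSO median, and the first was below all 16 DMSO wells. The mean was 819.9 ± 371 CPM (SD, n = 3) against 1279 ± 359 (SD, n = 16). The log2 fold change of -0.54 (SE 0.26) was about as large as that of SUMO3, but it failed the correction (edgeR unadjusted p = 0.0495, adjusted p = 0.293). The exact permutation p was 0.0392, and 0.418 without the first well, which had the lowest total of this set. SUMO2 met the study's criteria without the second well and with the replicate block, at -0.78 in both, though neither adjusted p passed (0.289 and 0.386, edgeR). PIAS1 had 3, 18 and 7 reads, or 171, 439 and 144 CPM. The second well was above all DMSO wells, and the others lay near their median. The log2 fold change was 0.77 (SE 0.48, edgeR adjusted p = 0.441, exact permutation p = 0.183), and it was -0.0059 without the second well. Of the 402 genes tested with Gusuibu, 7.71% were called higher and 1.74% lower, and 5.22% had an adjusted p-value under 0.05, SUMO3 being the only one of the 3 genes among them.

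The effects of Yinyanghuo and Gusuibu were compared in 1 edgeR model of all 57 wells. The effect of Yinyanghuo minus that of Gusuibu was 0.33 on the log2 scale for SUMO2 (SE 0.36, adjusted p = 0.771), 0.41 for SUMO3 (SE 0.25, adjusted p = 0.495) and -1.41 for PIAS1 (SE 0.87, adjusted p = 0.495). None of the 3 differences passed, while 5.58% of the 412 genes did. For SUMO3 the difference was 0.024 without the third Yinyanghuo well and 0.72 without the second (adjusted p = 0.0538), which had the lowest total of the series. The fall of SUMO3 with Gusuibu was therefore not shown to be particular to that extract. The log2 fold changes of SUMO2 and SUMO3 were positive with Roucongrong and negative with Gusuibu. Their log2 fold changes with Gusuibu minus those with Roucongrong were -1.28 (SE 0.35) and -0.88 (SE 0.25), which are values without a test. For PIAS1 the same difference was 1.73 (SE 0.75).

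The ratio of SUMO2 to SUMO3 reads within a well needs no scaling between wells. It is given as log2 of (SUMO2 + 0.5)/(SUMO3 + 0.5), and only its change between wells can be read, since each gene has its own probes. In the DMSO wells SUMO2 made up 15.8% to 30.1% (median 20.2%) of the summed reads of both genes in the Roucongrong set, 18.1% to 33.9% (median 23.9%) in the Yinyanghuo set and 12.7% to 29.8% (median 21.4%) in the Gusuibu set. With Roucongrong the share was 30.1%, 18.9% and 27.3% in the 3 wells, with 95% Clopper-Pearson intervals of 23.5 to 37.3%, 13.6 to 25.3% and 21.3 to 34.0%. The mean log2 ratio was -1.57 ± 0.46 (SD, n = 3) against -1.89 ± 0.37 (SD, n = 16), so it was 0.32 higher, less than 1 SD of the DMSO wells. The difference was 0.14 without the first Roucongrong well and 0.58, more than 1 SD, without the second.

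With Yinyanghuo the SUMO2 share was 24.6%, 35.9% and 18.6%. The second of these wells, with 14 SUMO2 and 25 SUMO3 reads, had an interval of 21.2 to 52.8%, wide enough to hold the share of most DMSO wells. The log2 ratio differed from the DMSO wells by 0.06 (exact permutation p = 0.788). With Gusuibu the share was 9.33%, 29.6% and 21.0%, and the first well (interval 3.84 to 18.3%) was below all 16 DMSO wells. The log2 ratio differed by -0.19 (exact permutation p = 0.581) and by 0.35 without that first well (exact permutation p = 0.353). No change in the balance of the paralogs was detectable at this depth with either extract. These intervals cover counting error only.

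**Figure D3:**
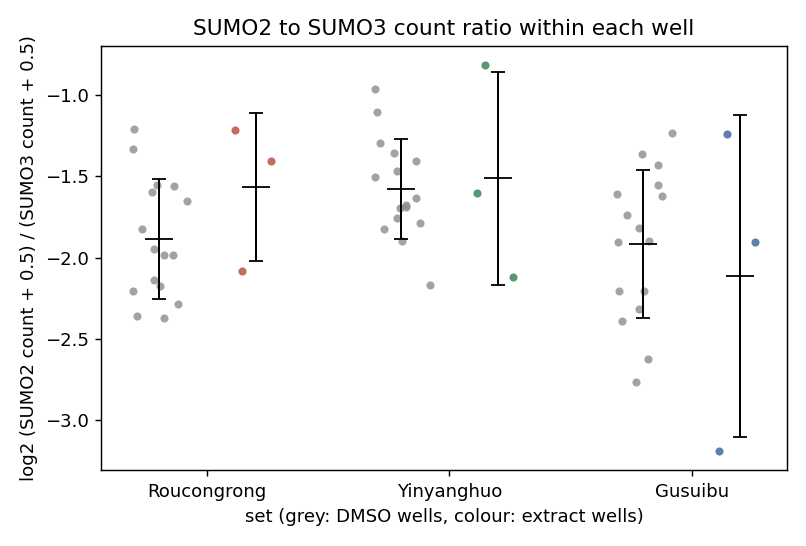
Log2 ratio of SUMO2 to SUMO3 reads in each well, by set; grey points are DMSO wells, coloured points extract wells, and black bars the mean ± SD (n = 16 or 3). Of the 9 extract wells, 1 Yinyanghuo well lies above and 1 Gusuibu well below all DMSO wells of their sets.

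Within a set of 16 DMSO wells, SUMO2 and SUMO3 were only loosely related. Pearson's r of their log2 CPM was 0.48 in the Roucongrong set (Spearman's rho 0.37), given without a test. It was 0.40 in the Yinyanghuo set (permutation p = 0.120, rho 0.45, permutation p = 0.0802) and -0.12 in the Gusuibu set (permutation p = 0.649, rho -0.06, permutation p = 0.822). The adjustment ran over all 9 relations among the 3 genes, those of the Roucongrong set included. For the Yinyanghuo and Gusuibu sets, the adjusted permutation p-values of r were 0.271 and 0.921, and those of rho 0.363 and 0.841. Without the 2 wells farthest from the SUMO2 median, r was 0.39, -0.01 and -0.14 in the Roucongrong, Yinyanghuo and Gusuibu sets. Leaving them out also narrows the range of SUMO2, and rho was not computed without them. PIAS1 had r of -0.43 with SUMO2 and -0.47 with SUMO3 in the Roucongrong set, which are values without a test. In the other sets its r with either SUMO gene lay between -0.21 and 0.04.

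**Figure D4:**
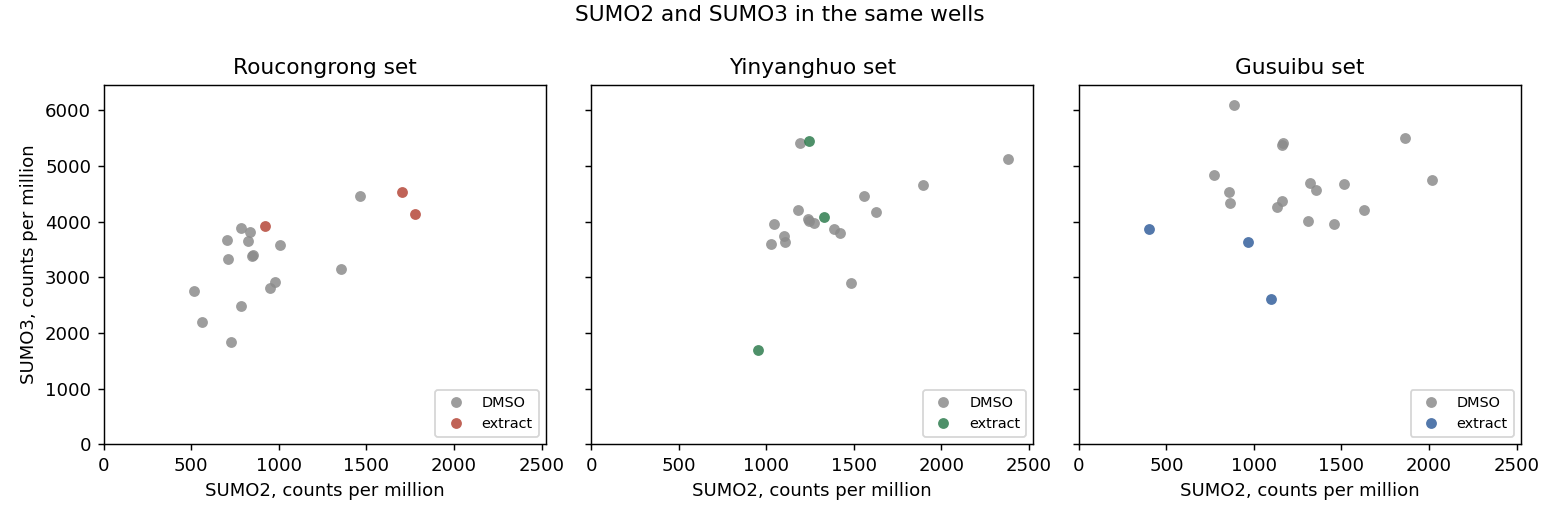
SUMO3 against SUMO2, both in CPM, in the wells of each set; grey points are DMSO wells (n = 16) and coloured points extract wells (n = 3). On the SUMO3 axis, the Roucongrong wells lie above at least 15 of their 16 DMSO wells, and the Gusuibu wells lie below all of theirs.

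Over all 48 DMSO wells, with each set centred on its mean, the panel gene most like SUMO2 was HSPB1, which encodes the small heat shock protein HSP27 (r = 0.56), followed by the tissue inhibitor of metalloproteinases TIMP1 (0.46) and the kinase SGK1 (0.45). SUMO3 ranked 24 among the 142 genes compared with SUMO2, at r = 0.29. The genes most like SUMO3 were the small GTPase RHOA (0.67), the 14-3-3 protein YWHAE (0.65) and N-cadherin CDH2 (0.60). The genes most like PIAS1 were DYNLL2 (0.39), the cyclin CCND1 (0.39) and THEM4 (0.37), at lower values. These r describe wells that share a set and its library totals. The r of each gene's level with the log2 total count was 0.17 for SUMO2, 0.36 for SUMO3 and 0.12 for PIAS1.

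The 3 genes that varied most like SUMO3 among the DMSO wells also fell in the Gusuibu wells. Of all genes tested there, 5.22% had an adjusted p-value under 0.05. That share is no like background, as only well-counted genes (mean count 20 or more) were compared for likeness. When genes averaging fewer than 5 counts were left out, 24 of the 218 tested with Gusuibu had an edgeR adjusted p-value under 0.05. CDH2 had 10722 ± 1660 CPM (SD, n = 3) against 15656 ± 1539 (SD, n = 16), with a log2 fold change at -0.58 (edgeR adjusted p = 0.00239). RHOA fell by 0.47 on the log2 scale (edgeR adjusted p = 0.00651) and YWHAE by 0.36 (edgeR adjusted p = 0.0116). As for SUMO3, the DMSO mean of each of these 3 genes was highest in the Gusuibu set. In the Roucongrong, Yinyanghuo and Gusuibu sets it was 15923, 22618 and 24913 CPM for RHOA and 35716, 46665 and 61921 for YWHAE. For CDH2 it was 11107, 15506 and 15656 CPM. HSPB1, the gene most like SUMO2, had 4538 ± 377 CPM against 6724 ± 957, which is -0.58 on the log2 scale (edgeR adjusted p = 0.0120). Its DMSO mean was lowest in the Gusuibu set, against 10231.7 CPM in the Roucongrong and 10998.5 in the Yinyanghuo set. The next genes in likeness to SUMO2 did not pass, TIMP1 at -0.10 (edgeR adjusted p = 0.756) and SGK1 at -0.41 (edgeR adjusted p = 0.330). The part of this shared variation in the fall of SUMO3 was not tested. With Yinyanghuo, RHOA fell by 0.43 (edgeR adjusted p = 0.0130), while the values of YWHAE (-0.34, edgeR adjusted p = 0.201) and CDH2 (-0.10, edgeR adjusted p = 0.699) did not pass. With Roucongrong, where SUMO3 was higher, the log2 fold changes of CDH2 (0.28), YWHAE (0.25) and RHOA (0.15) were also positive, and none passed.

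Of the PIAS family, the panel also holds the SUMO ligases PIAS2, PIAS3 and PIAS4. None of these passed the study's criteria or an adjusted p of 0.05 with any extract, and PIAS4 could be tested with Roucongrong only. PIAS2 was the best counted ligase, with DMSO medians of 94.5, 52.5 and 78.5 reads in the Roucongrong, Yinyanghuo and Gusuibu sets, and its log2 fold changes were -0.01, -0.08 and 0.14, each with an SE of 0.17. PIAS3 had -0.09, -0.69 and -0.19, and the Yinyanghuo value had an SE of 0.36 (edgeR adjusted p = 0.279). PIAS4 was not detectable: 1 read was counted in 1 DMSO well of the Roucongrong set and 0 in every extract well. In the DMSO wells PIAS2 was lower in the Yinyanghuo than in the Roucongrong set by a log2 difference of -0.27 (SE 0.08, edgeR adjusted p = 0.0157), while no pair of sets passed for PIAS3 (log2 differences 0.04, 0.16 and 0.12, edgeR adjusted p from 0.401 to 0.911).

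**Figure D5:**
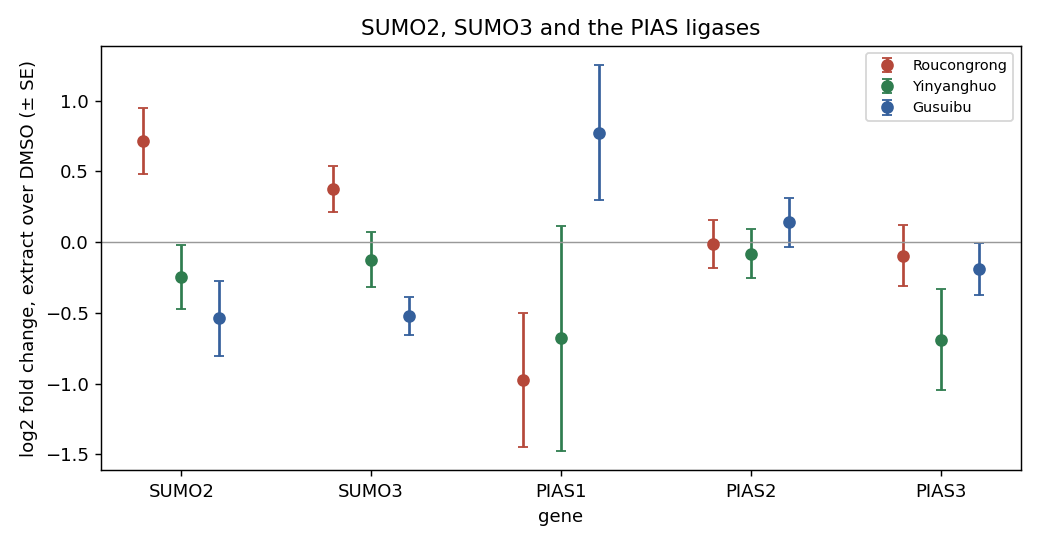
Log2 fold change (± SE) of SUMO2, SUMO3 and 3 PIAS ligases with each extract against the 16 DMSO wells of its set. SUMO2 and SUMO3 lie above 0 with Roucongrong and below 0 with Gusuibu, and PIAS1, with the fewest reads of the 5 genes shown, has the widest errors.

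Genes on which SUMO acts, or which neighbour PIAS1 in signalling, were counted from lists written from textbook knowledge. The counts stand beside 7.21%, 7.75% and 7.71% of all genes tested called higher, and 2.99%, 7.25% and 1.74% called lower, with Roucongrong, Yinyanghuo and Gusuibu, and lists of 3 to 6 genes are too short to be read against these shares. The SUMO reader DAXX, the only gene of its list of proteases and readers in the panel, was called with no extract (log2 fold changes -0.55, -0.68 and 0.26). Of 23 nuclear receptors and coregulators that are known SUMO targets, 1 was called with Roucongrong, 7 with Yinyanghuo (5 higher and 2 lower) and 2 with Gusuibu (1 higher and 1 lower), and none had an adjusted p-value under 0.05. The Roucongrong call, PPARA, and the higher Gusuibu call, ESR1, had no well above 3 reads. The Yinyanghuo calls included NR1H2, an oxysterol receptor (0.83, SE 0.30), PPARG (1.40, SE 0.53) and the deacetylase HDAC1 (-0.76, SE 0.32), named after their values were seen. The list's median was -0.10, 0.20 and 0.13 with the 3 extracts, beside -0.04, -0.13 and 0.04 over all genes tested.

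Of 6 other textbook SUMO targets, 0 were called with Roucongrong, 2 with Yinyanghuo (FOS higher and CDKN2A lower) and 0 with Gusuibu. CDKN2A, a cell cycle inhibitor, fell with Yinyanghuo from 15696 ± 2134 (SD, n = 16) to 9322 ± 2193 CPM (SD, n = 3), with all 3 wells below every DMSO well. Its fitted log2 fold change was -0.77 (SE 0.14, edgeR adjusted p = 0.000392). Of 3 ubiquitin-pathway genes, 1 was called, MDM4, lower with Yinyanghuo on 0, 1 and 1 reads. Of 6 JAK-STAT genes around PIAS1, 1 was called with Roucongrong (TYK2, lower), 0 with Yinyanghuo and 2 with Gusuibu (JAK2 higher and STAT3 lower); FOS, MDM4, TYK2 and JAK2 were named after their values were seen. STAT3, a transcription factor of cytokine signalling, had 450.1 ± 58.2 CPM (SD, n = 3) with Gusuibu against 854 ± 158 (SD, n = 16), and fell by 0.89 on the log2 scale (SE 0.22, edgeR adjusted p = 0.0187), with all 3 wells below every DMSO well. PIAS1 itself passed no test there.

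Of the 3 genes checked as HK-2 markers, LCN2, a secreted lipocalin that rises in tubule injury, fell with Yinyanghuo from 1442 ± 256 (SD, n = 16) to 727 ± 179 CPM (SD, n = 3), or by 0.99 on the log2 scale (SE 0.22, edgeR adjusted p = 0.00282). With Gusuibu, VIM, the mesenchymal intermediate filament protein vimentin, fell by 0.40 (SE 0.10, edgeR adjusted p = 0.0187) beside CDH2. With Roucongrong none of the 3 had an edgeR adjusted p-value under 0.05, and none was called. By the study's criteria, none of the 3 was called with Gusuibu either. The endothelial CDH5 was called with no extract. The part of these marker changes in the values of SUMO3 with Gusuibu was not tested.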

How the data were processed

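Expression of a 412-gene panel was measured by RASL-seq in 57 wells of HK-2 cells. The authors removed reads with too many mismatched bases, used the first read of each pair and deposited raw counts per gene and well, without normalization. The submitters' processing notes name Bowtie2 2.2.4 and DESeq2 1.22.1; the genome build is not given in the sources used here. All 412 Entrez identifiers matched a symbol, and wells were grouped by their labels. No well was left out, no 2 wells had the same counts, and the reads carry no molecular identifiers.

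Each extract (3 wells) was set against its own 16 DMSO wells in edgeR 4.0.16 (R 4.3.3) with TMM normalization and the quasi-likelihood F test over every gene with a nonzero total, with Benjamini-Hochberg adjustment over all genes tested. The DMSO sets were compared in a model of their own, and Yinyanghuo with Gusuibu as an interaction over all wells. The SE of a log2 value was derived from its test, as the absolute value over the square root of F, and not estimated separately. Two-sided exact permutation tests used the mean log2 CPM (prior count 2) or the log2 ratio, and correlations 100000 permutations. Sequences came from GENCODE release 29 transcripts, aligned with Biopython 1.88, using the principal isoform of each gene. The tests were tested on simulated data.

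The 3 genes and the gene lists were chosen with earlier results of these data known. The text names the 3 genes, SUMO proteins and conjugation enzymes of the panel, up to 4 genes of each other list and extract with the smallest p among adjusted p-values under 0.05, and the 3 genes most like each member over the DMSO wells (mean count of at least 20). Some genes that this rule names are not reported here. Alternatives were RLE or total-count scaling, DESeq2 1.42.0, a mean count of at least 5, filterByExpr, leaving out each extract well, all wells in 1 fit, other sets' DMSO wells, a replicate block, a prior count of 0.5, 1 added to each count of the ratio, and list counts by RLE or with the count minimum.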

Additional observations from a re-analysis of the deposited data

Results flagged for a closer look

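For SUMO2, every Roucongrong well was above the DMSO mean of its set on the log2 CPM scale, and every Yinyanghuo and every Gusuibu well was below that of its own set. The effect with Yinyanghuo minus that with Roucongrong was -0.95 on the log2 scale (SE 0.35), and that with Gusuibu minus that with Roucongrong was -1.28 (SE 0.35). For SUMO3, every Roucongrong well was above and every Gusuibu well below the DMSO mean, with a difference of -0.88 (SE 0.25). These 3 differences were not tested, because SUMO2 was chosen for its Roucongrong value and SUMO3 for its likeness to SUMO2. The Roucongrong DMSO wells, which enter all of them, had the lowest mean SUMO2 and SUMO3 of the DMSO sets.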

How the results depend on the processing

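Of 238 alternative values for 60 results, 210 kept their direction and their side of the threshold or stayed within 1 SD. With controls from the other sets, the log2 fold changes with Roucongrong were 0.10 (SUMO2), -0.10 (SUMO3) and 0.13 (PIAS1), that of SUMO2 with Yinyanghuo was 0.12, and those with Gusuibu were -0.12 (SUMO3) and -0.047 (PIAS1). SUMO3 with Gusuibu was -0.50 with all wells in 1 fit. The well numbers shared by extract and DMSO wells are not stated to pair them, and same-numbered wells did not deviate together (r from -0.57 to 0.61). The replicate block takes no information from DMSO wells without a same-numbered extract well, so 3 extract and 3 DMSO wells per set form the difference. With the block, SUMO3 was 0.48 with Roucongrong and -0.42 with Gusuibu (edgeR adjusted p = 0.525), and PIAS1 was 0.24 with Yinyanghuo. The block left 3, 2 and 0 genes of the panel with an adjusted p under 0.05 in place of 12, 30 and 21 with Roucongrong, Yinyanghuo and Gusuibu.

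Over all alternatives, the genes of the panel that met the study's criteria numbered 19 to 54 with Roucongrong, 37 to 81 with Yinyanghuo and 19 to 42 with Gusuibu, in place of 41, 60 and 38. With 1 extract well left out, the log2 fold change ranged from -0.49 to 0.19 for SUMO3 with Yinyanghuo, from -0.62 to -0.39 for SUMO3 with Gusuibu and from -0.0059 to 1.12 for PIAS1 with Gusuibu. The mean log2 CPM difference ranged from -0.61 to 0.22 (SUMO3) and from -0.86 to 0.052 (PIAS1) with Yinyanghuo, and from -0.92 to -0.25 for SUMO2 with Gusuibu. For the log2 ratio the range was -0.29 to 0.37 with Yinyanghuo and -0.63 to 0.35 with Gusuibu. Scaled by total counts alone, r of SUMO2 and PIAS1 in the Yinyanghuo DMSO wells was -0.017 in place of 0.0051.

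Genes called among the receptors and coregulators numbered 0 with Roucongrong, 4 with Yinyanghuo and 0 with Gusuibu at a mean count of at least 5, and 1 with Gusuibu by RLE. With Yinyanghuo, the ubiquitin-pathway genes had 0 and the JAK-STAT genes 1, both by RLE and at that minimum, where the other textbook targets had 1. PIAS1 fell short of that minimum with Yinyanghuo and of filterByExpr with Gusuibu, so it has no value there. The cause of these changes was not tested, apart from the fewer genes or wells that a filter or a left-out well leaves. PIAS1, with medians of 4 to 13.5 reads in the DMSO wells, is the gene that depth limits most.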
